A study of Mus musculus with 47 samples.

Results

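The 10 genes described here encode 2 groups of proteins with which phagocytes recognise and clear material. The first group holds the Fc receptor genes *Fcgr1*, *Fcgr2b*, *Fcgr3* and *Fcer1g* together with *Cd68*, and the second holds the TAM receptors *Tyro3*, *Axl* and *Mertk* with their ligands *Gas6* and *Pros1*. The genes were chosen by name, with earlier results of these data known. All 10 were found among the 54281 genes of the TPM table (transcript abundance scaled to a fixed total per library) by their Ensembl identifiers. RNA came from the cortex of male C57BL/6J mice of about 3 months, kept in 12 h of light and 12 h of dark, that ate control chow or chow with 1200 ppm of PLX5622 for 10 days. PLX5622 inhibits the CSF1 receptor, on which microglia depend for survival. Brains were taken at 6 Zeitgeber times (ZT, hours after lights on), ZT2, ZT6, ZT10, ZT14, ZT18 and ZT22, from mice perfused with saline and housed 4 to a cage. There were 23 control and 24 PLX5622 libraries, each from a separate mouse, with 4 in every group of 1 diet and 1 ZT except control ZT14, which had 3. The drug acts in the whole body and on CSF1R-dependent macrophages at the borders of the brain as well as on microglia, which limits the diet as a model of microglial loss.

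Fc gamma receptors bind the constant part of IgG antibodies and so couple antibody-coated targets to uptake. *Fcgr1* encodes the high-affinity receptor, *Fcgr3* a low-affinity activating receptor and *Fcgr2b* the inhibitory receptor, whereas *Fcer1g* encodes the common gamma chain that carries the signal for the activating receptors. *Cd68* encodes a glycoprotein of macrophage lysosomes that is widely used as a phagocyte marker. TAM receptors are tyrosine kinases that recognise dying cells indirectly, because GAS6 and protein S (*Pros1*) bind exposed phosphatidylserine and the receptor at once. In brain, MERTK and AXL are known from microglia, astrocytes and vessels, and TYRO3 mainly from neurons.

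On GRCm38, with GENCODE M21 annotation, *Fcgr2b* (chromosome 1, 170958617 to 170976547), *Fcgr3* (chromosome 1, 171051174 to 171064935) and *Fcer1g* (chromosome 1, 171229572 to 171234365) lay near one another on chromosome 1, all on the minus strand. *Fcgr1* lay at chromosome 3, 96282909 to 96293969, and *Cd68* at chromosome 11, 69664213 to 69666153, both on the minus strand. *Tyro3* (chromosome 2, 119797733 to 119818104) and *Mertk* (chromosome 2, 128698956 to 128802894) shared chromosome 2 and the plus strand. *Axl* lay at chromosome 7, 25757273 to 25788705, minus strand, *Gas6* at chromosome 8, 13465374 to 13494490, minus strand, and *Pros1* at chromosome 16, 62854307 to 62929346, plus strand. The values are sums over all exons of a gene and do not separate untranslated from coding parts. Of the 100-base windows in its transcripts, 2.54% for *Fcgr3* (44 of 1733, all shared with *Fcgr2b*) and 4.30% for *Fcgr2b* (shared mostly with *Cplx2* and *Gm47409*, and with *Fcgr3*) also occurred in another gene, and none did for the other 8 members. An antisense gene, *Gm38204*, overlapped 155 exon bases of *Fcgr2b* (2.68%), and *Tmem255b* overlapped 34 exon bases of *Gas6* (1.33%). Because no source states that strand was used in counting, reads in these overlaps cannot be assigned to 1 gene.

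The 250 bases before the RefSeq start (GRCm38.p6) are shown for the genes that fell together, and for *Axl*, which held the same motif, with capitals marking each match, on either strand, to GAGGAA, the core bound by PU.1, the lineage factor of macrophages. *Fcgr1* is at chr3:96293970-96294219, *Fcgr2b* at chr1:170976072-170976321, *Fcgr3* at chr1:171059404-171059653 (the first of 2 starts), *Fcer1g* at chr1:171234350-171234599, *Cd68* at chr11:69666171-69666420 and *Axl* at chr7:25788734-25788983, all on the minus strand and printed 5′ to 3′. The windows of *Fcgr2b* and *Fcgr3* lay wholly inside the GENCODE gene span, which begins farther upstream than the RefSeq start, and that of *Fcer1g* lay partly inside it.
Fcgr1: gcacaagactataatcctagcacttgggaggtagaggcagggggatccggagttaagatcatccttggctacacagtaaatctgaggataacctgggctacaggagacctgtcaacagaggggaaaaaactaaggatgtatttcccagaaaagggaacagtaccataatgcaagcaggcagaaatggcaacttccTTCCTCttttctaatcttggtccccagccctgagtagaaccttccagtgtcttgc
Fcgr2b: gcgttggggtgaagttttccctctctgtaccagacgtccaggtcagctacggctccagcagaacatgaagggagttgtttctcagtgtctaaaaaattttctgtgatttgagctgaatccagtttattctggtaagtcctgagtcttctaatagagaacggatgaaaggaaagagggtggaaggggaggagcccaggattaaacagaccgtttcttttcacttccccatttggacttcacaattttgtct
Fcgr3: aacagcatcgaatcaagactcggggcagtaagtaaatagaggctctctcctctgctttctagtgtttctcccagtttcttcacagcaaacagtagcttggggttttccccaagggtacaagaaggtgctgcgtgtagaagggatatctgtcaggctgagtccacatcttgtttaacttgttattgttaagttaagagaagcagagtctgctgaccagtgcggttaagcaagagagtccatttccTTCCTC
Fcer1g: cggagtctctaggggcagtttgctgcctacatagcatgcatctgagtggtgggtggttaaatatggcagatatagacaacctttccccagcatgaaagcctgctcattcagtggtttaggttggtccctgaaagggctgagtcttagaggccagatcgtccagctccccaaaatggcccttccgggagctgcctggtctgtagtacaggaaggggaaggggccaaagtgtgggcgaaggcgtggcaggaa
Cd68: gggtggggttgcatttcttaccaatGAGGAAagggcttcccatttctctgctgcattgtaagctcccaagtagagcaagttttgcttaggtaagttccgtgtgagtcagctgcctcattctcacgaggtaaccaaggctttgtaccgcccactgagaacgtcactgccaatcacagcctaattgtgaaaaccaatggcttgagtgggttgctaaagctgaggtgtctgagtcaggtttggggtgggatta
Axl: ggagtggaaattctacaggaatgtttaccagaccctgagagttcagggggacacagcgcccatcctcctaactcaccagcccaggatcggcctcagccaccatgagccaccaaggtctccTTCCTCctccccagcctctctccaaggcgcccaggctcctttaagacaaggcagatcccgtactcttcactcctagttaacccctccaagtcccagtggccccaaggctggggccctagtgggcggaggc
The motif occurred once each in *Fcgr1* (first base at -55 from the start), *Fcgr3* (-6), *Cd68* (-225) and *Axl* (-130), and not in the windows of *Fcgr2b*, *Fcer1g*, *Mertk*, *Tyro3*, *Gas6* or *Pros1*. It occurred in 7601 of 32534 mouse promoter windows of this length (23.4%), so 4 of 10 is a description of these letters only. The E-box CACGTG, which clock proteins bind, was in none of the 10 windows and in 6.04% of all promoter windows.

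Total counts per library ranged from 16597987 to 27626161 and overlapped between the diets, with medians of 18314954 in control and 21476967.5 in PLX5622 mice. Microglia were checked with 10 marker genes, all of which were lower in PLX5622 mice, and their summed level was 383 to 600.2 TPM in control and 19.99 to 92.5 TPM in PLX5622 mice. *Csf1r*, which encodes the target of the drug, had 51.6 ± 13.6 TPM in control mice (SD, n = 23) and 4.19 ± 2.77 TPM in PLX5622 mice (SD, n = 24). In whole cortex, fewer cells of a type and less RNA per cell cannot be told apart.

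In control cortex the 10 genes spanned a wide range of TPM, a unit that corrects for transcript length. The order by mean TPM was *Tyro3* (58.1 ± 8.16, SD, n = 23), *Gas6* (46.5 ± 5.28), *Fcer1g* (34.9 ± 3.52), *Axl* (31.5 ± 3.92), *Fcgr3* (17.3 ± 2.41), *Mertk* (16.9 ± 3.00), *Cd68* (10.8 ± 1.62), *Pros1* (6.63 ± 1.42), *Fcgr2b* (3.204 ± 0.482) and *Fcgr1* (2.33 ± 0.922). Between neighbours in that order, the ranges over mice were separate for *Axl* and *Fcgr3* and for *Pros1* and *Fcgr2b* and overlapped for every other pair. *Fcgr3* exceeded *Mertk* in 9 of 23 control libraries although its mean was higher, so their order was not settled. The 2 groups were interleaved in control mice. In PLX5622 mice they were not, because the means of all 5 TAM genes stood above those of *Cd68* (4.09 ± 1.41 TPM, SD, n = 24), *Fcer1g* (3.44 ± 1.98), *Fcgr3* (2.45 ± 1.09), *Fcgr2b* (0.663 ± 0.719) and *Fcgr1* (0.274 ± 0.168). The lowest of the TAM genes, *Pros1* at 5.31 ± 0.939 TPM, exceeded *Cd68* in 18 of 24 PLX5622 libraries, and their ranges overlapped.

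**Figure D1:**
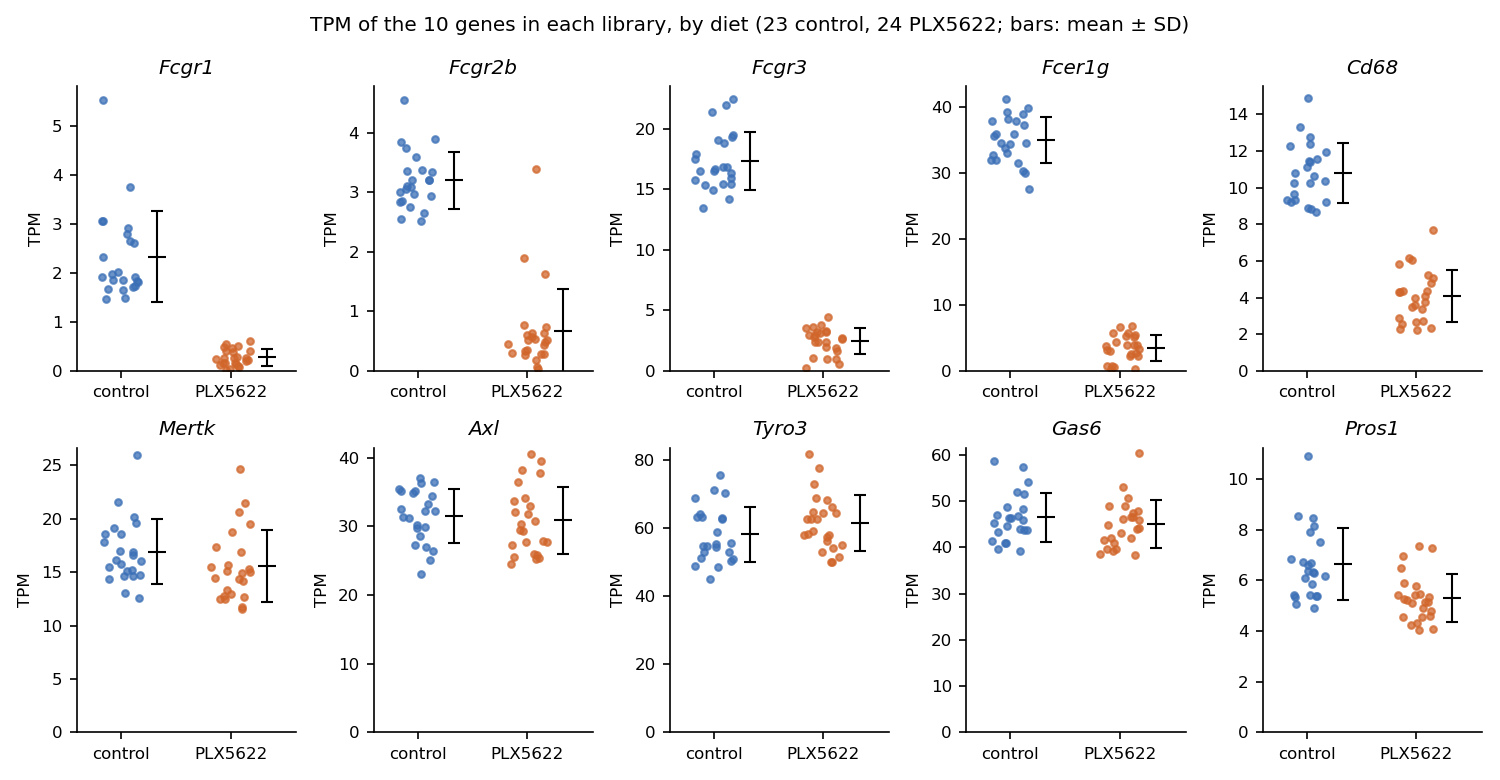
Level of each gene in TPM (vertical axes, from 0) in every library, by diet (horizontal axes). Points are mice, 23 control in blue and 24 PLX5622 in orange, and black bars give the mean ± SD (the lower bar of *Fcgr2b* in PLX5622 mice is cut at 0). The upper row holds the Fc receptor genes and *Cd68*, where the diets separate except for 1 mouse in *Fcgr2b*, and the lower row the TAM genes, where the diets overlap.

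The comparison of the diets asked whether the genes changed with microglial depletion. It used limma on log2(TPM + 1), with time of day entered as a cosine and a sine term, over the 14580 genes that averaged 1 TPM or more, and a gene was called at a Benjamini-Hochberg adjusted p under 0.05. All 5 genes of the Fc receptor and *Cd68* group were called lower in PLX5622 mice, against 2.58% of all genes tested called lower, and of the TAM group 1 of 5 was called, *Pros1*, also lower. No member was called higher, against 0.871% of all genes, and the 6 members called compare with 3.45% of all genes called in either direction. edgeR on the deposited counts called the same 6 members lower, against 5.08% of genes called lower and 7.23% in either direction, and DESeq2 called these 6 and *Gas6* lower, against 5.5% of genes. The median log2 fold change was -1.42 in the first group and -0.05 in the second, beside 0.03 over all genes tested. All 10 members passed the filter, but *Fcgr1* and *Fcgr2b* had a mean under 1 TPM in PLX5622 mice and passed through their control level.

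*Fcer1g* fell the most on this scale. Its level was 27.6, 34.6 and 41.1 TPM (lowest, median, highest) in control mice and 0.288, 3.53 and 6.76 TPM in PLX5622 mice, so that the diets did not overlap. The mean was 9.86% of control, with a log2 fold change of -3.19 (SE 0.165, adjusted p = 2.05e-21 in limma). *Fcgr3* had 13.5, 16.6 and 22.4 TPM in control mice and 0.275, 2.69 and 4.43 TPM in PLX5622 mice. It too was lower in every PLX5622 mouse than in any control mouse, at 14.2% of control (log2 fold change -2.48, SE 0.116, adjusted p = 4.35e-23 in limma). Both the receptor and the chain it signals through were thus low in every PLX5622 mouse.

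*Fcgr1* had 1.46, 1.92 and 5.53 TPM in control mice and 0.0241, 0.249 and 0.618 TPM in PLX5622 mice, again without overlap. Its mean was 11.8% of control in TPM and 16.4% in CPM (counts scaled to the library total), and the log2 fold change was -1.36 (SE 0.0796, adjusted p = 2.68e-19 in limma). Adding 1 to TPM values this low shrinks the fold change, which was -2.61 in edgeR on the deposited counts. Those counts were 51 to 130 in control and 3 to 28 in PLX5622 libraries. *Fcgr2b*, the inhibitory receptor, had 2.52, 3.10 and 4.56 TPM in control mice and 0.0338, 0.501 and 3.39 TPM in PLX5622 mice. The diets were separate except for PLX5622 mouse 4 at ZT18, which had the highest value of its diet in TPM and 21 counts. By CPM all 24 PLX5622 mice lay below every control mouse, and the fold change was -1.42 in limma (SE 0.101, adjusted p = 4.67e-16) and -2.61 in edgeR.

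*Cd68* fell less than the Fc receptor genes. It had 8.66, 10.6 and 14.9 TPM in control mice and 2.21, 4.04 and 7.70 TPM in PLX5622 mice. The diets did not overlap, and the mean was 37.8% of control (log2 fold change -1.25, SE 0.088, adjusted p = 2.54e-16 in limma, and -1.46 in edgeR). Across all genes tested, 0.583% had every PLX5622 library below every control library, and 4 of the 10 members did: *Fcgr1*, *Fcgr3*, *Fcer1g* and *Cd68*.

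The TAM receptors overlapped between the diets. *Mertk* had 12.6, 16.2 and 25.95 TPM in control and 11.55, 14.98 and 24.7 TPM in PLX5622 mice, and 4 PLX5622 mice lay below every control mouse. Its mean was 92.0% of control, and its log2 fold change of -0.13 (SE 0.0608, 95% interval -0.25 to -0.01) had an unadjusted p of 0.0393 and an adjusted p of 0.277 in limma, so it was not called. *Axl* had 23.02, 32.2 and 37.1 TPM in control and 24.6, 30.0 and 40.6 TPM in PLX5622 mice. No difference was called (log2 fold change -0.03, 95% interval -0.15 to 0.09, adjusted p = 0.820 in limma). *Tyro3* had 45.1, 55.4 and 75.4 TPM in control and 49.97, 60.8 and 81.7 TPM in PLX5622 mice, with a log2 fold change of 0.08 (95% interval -0.03 to 0.19, adjusted p = 0.486 in limma). For all 3 receptors the intervals left out changes as large as that of *Cd68*.

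The ligands differed from each other. *Gas6* had 39.2, 45.8 and 58.6 TPM in control and 38.3, 44.6 and 60.5 TPM in PLX5622 mice. Its log2 fold change was -0.05 (95% interval -0.14 to 0.04, adjusted p = 0.624 in limma), and DESeq2 on the counts called it lower by a similarly small amount (-0.08, adjusted p = 0.0289). *Pros1* had 4.93, 6.34 and 10.9 TPM in control and 4.06, 5.19 and 7.37 TPM in PLX5622 mice. The diets overlapped, with 9 PLX5622 mice below every control mouse in TPM and 17 in CPM. The mean was 80.03% of control, and *Pros1* was called lower (log2 fold change -0.27, SE 0.0672, adjusted p = 0.0115 in limma, and 4.29e-06 in edgeR at -0.31).

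**Figure D2:**
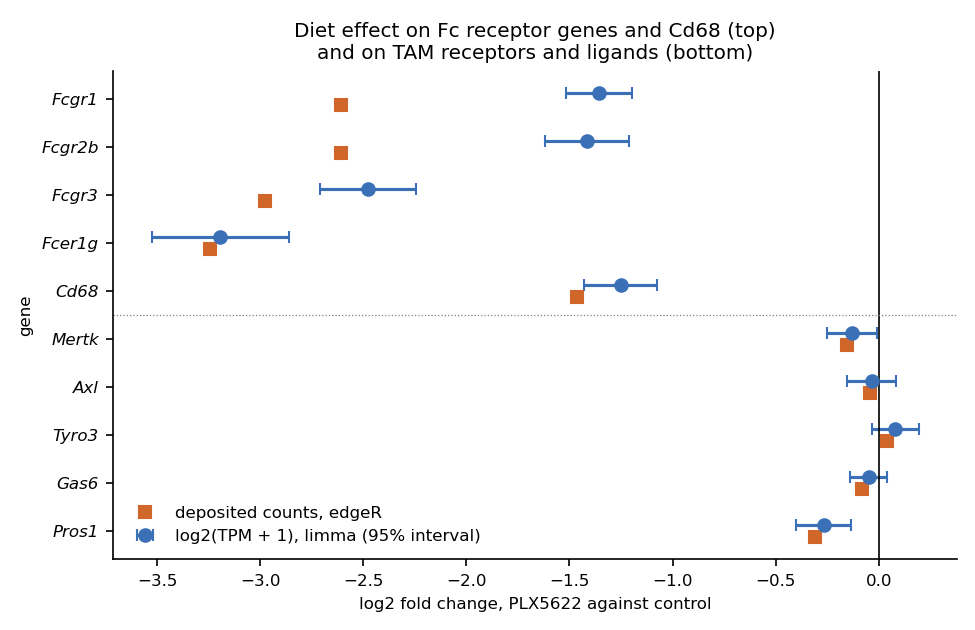
Log2 fold change of each gene (vertical axis), PLX5622 against control (horizontal axis), from limma on log2(TPM + 1) with its 95% interval (blue circles) and from edgeR on the counts (orange squares, no interval drawn). The Fc receptor genes and *Cd68* above the dotted line lie between -3.24 and -1.25 and the TAM genes below it between -0.31 and 0.08, with *Fcgr1* and *Fcgr2b* the pair for which the scales differ most.

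At single Zeitgeber times the split between the groups was present throughout the day. *Fcgr1*, *Fcgr3*, *Fcer1g* and *Cd68* were lower in every PLX5622 mouse than in every control mouse at 6 of 6 ZTs, and *Fcgr2b* at 5 of 6, all but ZT18. Of all genes tested, such a separation was found in 2.74% at ZT2, 4.17% at ZT6, 1.63% at ZT10, 1.98% at ZT14, 1.91% at ZT18 and 3.78% at ZT22. Among the TAM genes it was found only for *Mertk* at ZT2 and *Pros1* at ZT6. As a share of the control mean of the same ZT, *Fcer1g* ranged from 5.26% (ZT2) to 11.9% (ZT18), *Fcgr3* from 8.46% (ZT14) to 21.1% (ZT6) and *Cd68* from 31.2% (ZT14) to 56.2% (ZT6). *Fcgr1* ranged from 4.27% (ZT14) to 17.95% (ZT18), and *Fcgr2b* from 15.5% (ZT22) to 38.4% (ZT18). At ZT14, control *Fcgr1* rested on 3 mice with 1.74, 5.53 and 3.76 TPM and counts of 60, 130 and 106, and the highest of these was the highest *Fcgr1* value of the study. In CPM the 3 mice had 3.195, 5.397 and 4.608, while control mouse 4 at ZT2 had 5.351 CPM at 3.05 TPM. The shares by ZT were taken from TPM only.

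*Pros1* was lower on average in PLX5622 mice at 6 of 6 ZTs, from 68.5% of control at ZT2 to 94.4% at ZT18. At ZT6 the control mice had 5.38, 6.84, 5.84 and 6.73 TPM and the PLX5622 mice 5.15, 4.59, 4.92 and 4.23 TPM. At ZT2, where the means were farthest apart, 1 control mouse stood high (5.44, 7.92, 10.9 and 6.34 TPM) and the PLX5622 mice (5.77, 5.41, 5.23 and 4.56 TPM) overlapped with the lowest control mouse. *Axl* ranged from 88.4% of control at ZT6 to 118.2% at ZT14, *Tyro3* from 93.7% at ZT14 to 112.8% at ZT22 and *Gas6* from 89.3% at ZT6 to 103% at ZT14, so these genes had means on both sides of control.

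Rhythm over the day was tested within each diet with JTK_CYCLE, a rank test for a 24-h cycle, over the same genes. It called 0.0754% of genes in control mice and 0.61% in PLX5622 mice, and no member in either diet. At a p under 0.05, corrected for the phases tried (Bonferroni) but not over genes, it listed 8.53% and 11.1% of genes. Of the members it listed *Mertk* alone, in both diets. The F test in limma called 0.247% of genes in control and 0.926% in PLX5622 mice, and that in edgeR 1.67% and 2.68%, and neither called a member.

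*Mertk* came nearest to a call. In control mice it had 14.7, 15.5, 12.6 and 14.6 TPM at ZT6 and 25.95, 17.8 and 20.1 TPM at ZT14. These were the ZTs of its lowest and highest mean. All 3 mice at ZT14 exceeded the 4 at ZT6, but picking the extreme ZTs favours such a separation. The means were 14.4 and 21.3 TPM, a 1.48-fold range (exact JTK_CYCLE p = 0.0151, adjusted p = 0.398, estimated peak ZT18). In PLX5622 mice it had 14.4, 11.55, 11.7 and 12.7 TPM at ZT2 and 24.7, 21.5, 17.3 and 20.6 TPM at ZT14. These too were the ZTs of its lowest and highest mean, and the mice again did not overlap. Here the means were 12.6 and 21.0 TPM, a 1.67-fold range (exact JTK_CYCLE p = 6.53e-04, adjusted p = 0.0756, estimated peak ZT14). Leaving out PLX5622 mouse 3 at ZT18 or PLX5622 mouse 1 at ZT22 brought *Mertk* under the threshold, the lowest adjusted p being 0.0371. *Gas6* in PLX5622 mice was lowest at ZT6 (41.4 TPM) and highest at ZT14 (52.1 TPM), with an adjusted p of 0.468 in JTK_CYCLE. For the other members the adjusted p was 1 in both diets, and for *Gas6* in control mice too.

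A difference in rhythm between the diets, the interaction of diet with cosine and sine, was called for 0% of genes in limma, where 4.59% of genes had an unadjusted p under 0.05. No member was among these. Their unadjusted values in limma ran from 0.106 for *Mertk* to 0.859 for *Tyro3*, and every adjusted value was 1. edgeR and DESeq2 called 0 genes for this difference, and by neither did a member have an unadjusted p under 0.05.

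**Figure D3:**
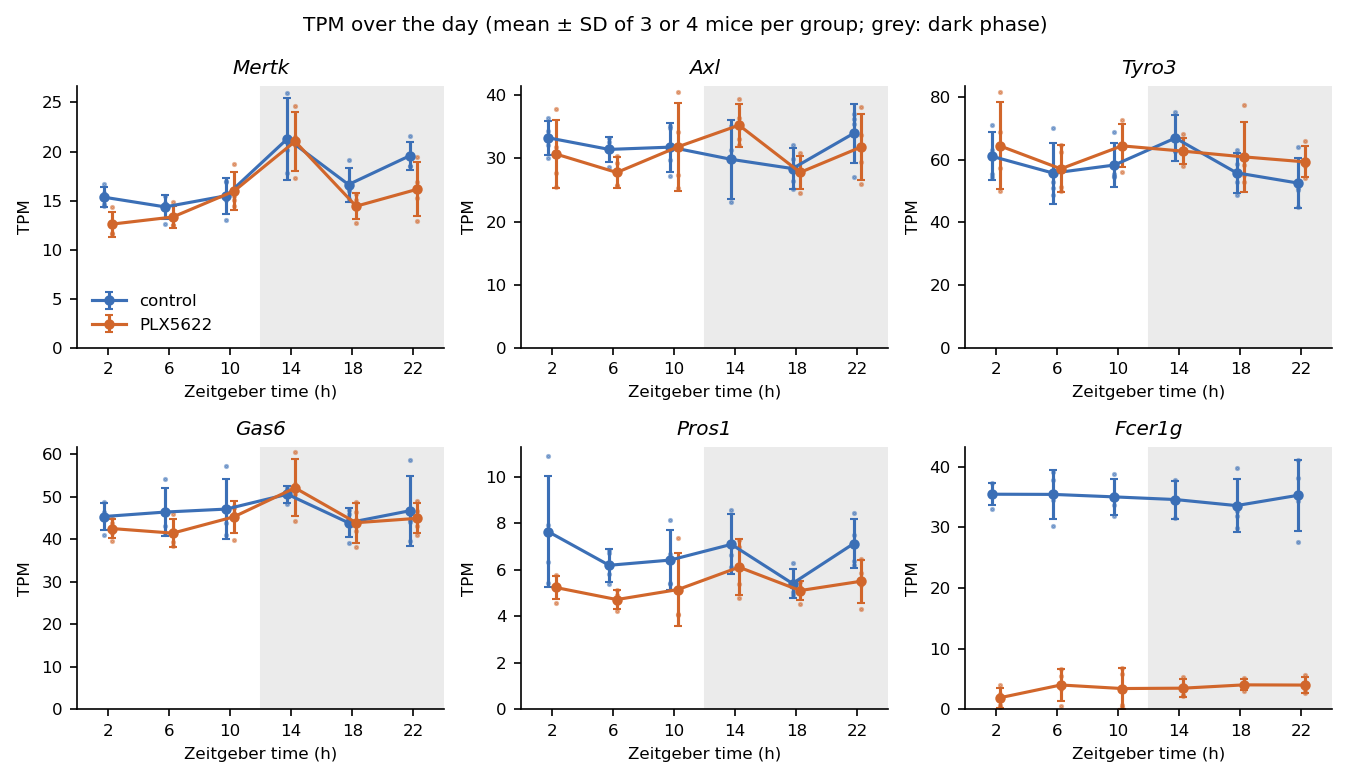
TPM (vertical axes, from 0) against Zeitgeber time in hours (horizontal axes) for the 5 TAM genes and *Fcer1g*. Large points and bars are the mean ± SD of 4 mice (3 for control ZT14), small points are mice, and the dark phase is grey. *Mertk* means reach 21.3 TPM (control) and 21.0 TPM (PLX5622) at ZT14, and *Fcer1g* stays apart between the diets at every ZT.

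Whether members changed by different factors was tested on the ratio of their counts within a library (0.5 added to each count, permutation of the diet labels within each ZT, two-sided, 100000 permutations, adjusted over 10 pairs). The ratio moved with diet in 7 of 10 pairs. In these counts *Fcgr1* fell by less than *Fcer1g* (log2 ratio higher by 0.80 in PLX5622 mice, SE 0.192, adjusted p = 6.67e-05 by permutation). It also fell by less than *Fcgr3* in counts (0.56, SE 0.193, adjusted p = 0.0107 by permutation). From TPM the *Fcgr1* to *Fcgr3* ratio was higher by 0.16, with an adjusted p of 0.381 in the same permutation test. In mean TPM *Fcgr1* was at 11.8% of control and *Fcgr3* at 14.2%, so their order depended on the measure. For *Fcgr3* against *Fcer1g* the ratio was higher by 0.23 (SE 0.129, adjusted p = 0.0927 by permutation), and for *Fcgr2b* against *Fcgr3* by 0.48 (SE 0.238, adjusted p = 0.0634 by permutation), so neither was called. The former was called from TPM (0.71, adjusted p = 1.33e-04 by permutation) and the latter with 5 added to each count (0.69, adjusted p = 0.00117 by permutation). *Cd68* fell by far less than *Fcer1g* (1.99, SE 0.184) and by more than *Mertk* (-1.36, SE 0.109), both at an adjusted p of 5e-05, from the smallest p these permutations can give.

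Among the TAM receptors, *Mertk* was lower in PLX5622 mice relative to *Axl* (-0.12, SE 0.046) and to *Tyro3* (-0.20, SE 0.073), each with an adjusted p of 0.013 by permutation, whereas *Axl* against *Tyro3* was not called (-0.08, SE 0.0826, adjusted p = 0.323 by permutation). From TPM the *Mertk* to *Axl* ratio had an adjusted p of 0.0885 by permutation and was no longer called. *Gas6* relative to *Pros1* was higher by 0.23 in PLX5622 mice (SE 0.0601, adjusted p = 8.25e-04 by permutation), so the ligands changed by different factors.

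Each member was then set against the mean of the 10 microglial marker genes in the same library, in log2 counts and with the same permutation test, adjusted over 10 members. *Fcer1g* differed least from the markers: its ratio was higher by 0.07 in PLX5622 mice (SE 0.0933, adjusted p = 0.475 by permutation). From TPM it was lower by 0.12 on the log2 scale (-0.12, adjusted p = 0.341 by permutation), and with 5 added to each count it was higher by 0.24 (adjusted p = 0.00223 by permutation), so its direction and its call depended on the setting. *Fcgr3* was higher relative to the markers in PLX5622 mice by 0.30 (SE 0.118, adjusted p = 0.0118 by permutation), *Fcgr2b* by 0.78 (SE 0.196, adjusted p = 2.5e-05 by permutation) and *Fcgr1* by 0.87 (SE 0.144, adjusted p = 1.43e-05 by permutation). *Cd68* was higher by 2.06 (SE 0.165), which is 4.18-fold. The TAM genes were higher by 3.27 (*Pros1*) to 3.62 (*Tyro3*), and the adjusted p of *Cd68* and of these 5 was 1.43e-05, from the smallest p the permutations can give. In all, 9 of 10 members (10 with 5 added to each count) changed by another factor than the microglial markers. A gene unchanged by diet also moves on this ratio, because the markers themselves fell (median log2 fold change -3.13 in limma). The shifts of the TAM genes therefore largely restate the fall of the markers.

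**Figure D4:**
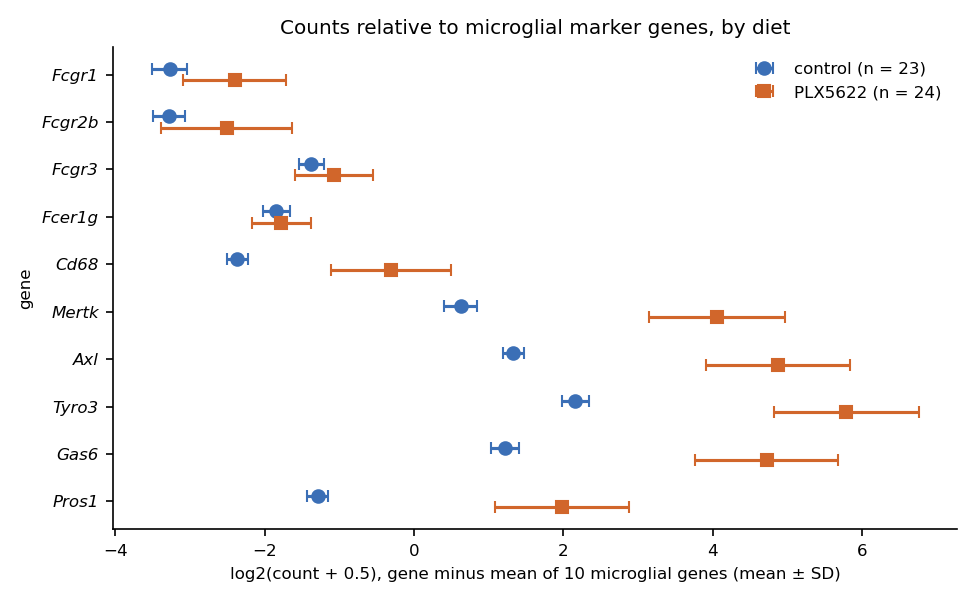
Log2(count + 0.5) of each gene (vertical axis) minus the mean of the 10 microglial marker genes in the same library (horizontal axis), as mean ± SD of 23 control (blue) and 24 PLX5622 mice (orange). *Fcer1g* has nearly the same value in both diets (-1.84 and -1.78), *Cd68* moves from -2.37 to -0.30 and the TAM genes move by over 3.

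The microglial RNA left after the diet differed between mice. The mean log2(TPM + 1) of the 10 markers was 1.06, 2.14 and 2.96 (lowest, median, highest) in PLX5622 mice and 4.87, 5.18 and 5.44 in control mice. Its relation to each member was computed within a diet, because the diets form separate clusters, with permutation p-values adjusted over 20 relations. In the 24 PLX5622 mice, *Fcer1g* followed the markers closely (Pearson r = 0.929, adjusted p = 2e-04, Spearman rho = 0.931, adjusted p = 2e-04 by permutation, and r = 0.896 without the 2 mice farthest from the median). *Fcgr3* did so too (r = 0.774, adjusted p = 2e-04, rho = 0.570, adjusted p = 0.0171 by permutation, r = 0.686 without 2 mice), as did *Fcgr1* (r = 0.601, adjusted p = 0.0141, rho = 0.599, adjusted p = 0.0125 by permutation, r = 0.485 without 2 mice). With values taken as deviations from the mean of each ZT group, r was 0.944, 0.752 and 0.610 for these genes.

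*Fcgr2b* passed the threshold narrowly (r = 0.482, adjusted p = 0.0492, rho = 0.624, adjusted p = 0.00887 by permutation). It had an r of 0.419 and an unadjusted p of 0.0503 by permutation without the 2 mice farthest from the median. The call was lost within ZT groups (r = 0.459, adjusted p = 0.0663 by permutation) and when any 1 of 18 mice was left out (r from 0.428 to 0.542 over all mice left out in turn), and it was kept in CPM (r = 0.543, adjusted p = 0.0228 by permutation). *Cd68* was not called in TPM (r = 0.376, adjusted p = 0.129, rho = 0.458, adjusted p = 0.0723 by permutation, r = 0.356 without 2 mice) but was in CPM (r = 0.536, adjusted p = 0.0228 by permutation). *Mertk* (r = 0.179, rho = 0.166), *Axl* (r = -0.152, rho = -0.206), *Tyro3* (r = -0.09, rho = -0.097) and *Gas6* (r = -0.109, rho = -0.059) had adjusted p-values of 0.472 to 0.676 for r and 0.392 to 0.781 for rho by permutation. Within ZT groups *Mertk* had r = 0.433 (adjusted p = 0.0874 by permutation). *Pros1* had r = 0.354 (adjusted p = 0.150, rho = 0.275, adjusted p = 0.299 by permutation, r = 0.287 without 2 mice), and r = 0.557 (adjusted p = 0.0141 by permutation) within ZT groups.

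In the 23 control mice, where the markers varied over a narrower range, *Fcgr3* (r = 0.582, adjusted p = 0.0141, rho = 0.562, adjusted p = 0.0191 by permutation, r = 0.569 without 2 mice) and *Pros1* (r = 0.583, adjusted p = 0.0141, rho = 0.667, adjusted p = 0.00887 by permutation, r = 0.464 without 2 mice) followed the markers. Within ZT groups the adjusted p was 0.0074 for *Fcgr3* and 0.0919 for *Pros1* by permutation, so the latter was lost, and from CPM the adjusted p of *Fcgr3* was 0.0579. *Fcer1g* did not reach the threshold there (r = 0.212, adjusted p = 0.413, rho = 0.240, adjusted p = 0.336 by permutation). *Mertk* had r = 0.459 (adjusted p = 0.0708, rho = 0.384, adjusted p = 0.142 by permutation) and r = 0.650 (adjusted p = 0.00705 by permutation) within ZT groups, but r = 0.110 (adjusted p = 0.715 by permutation) in CPM. *Cd68* (r = 0.471, rho = 0.456), *Axl* (r = 0.424, rho = 0.364) and *Tyro3* (r = 0.435, rho = 0.396) had adjusted p-values of 0.0665, 0.0872 and 0.0850 for r by permutation, and from CPM *Cd68* (r = 0.676, adjusted p = 0.002 by permutation) and *Axl* (r = 0.494, adjusted p = 0.0421 by permutation) passed while *Tyro3* (r = 0.204, adjusted p = 0.467 by permutation) did not. *Fcgr1* (r = 0.245), *Fcgr2b* (r = 0.268) and *Gas6* (r = 0.311) had adjusted p-values of 0.228 to 0.347 by permutation. The difference between the diets in these relations was not tested.

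**Figure D5:**
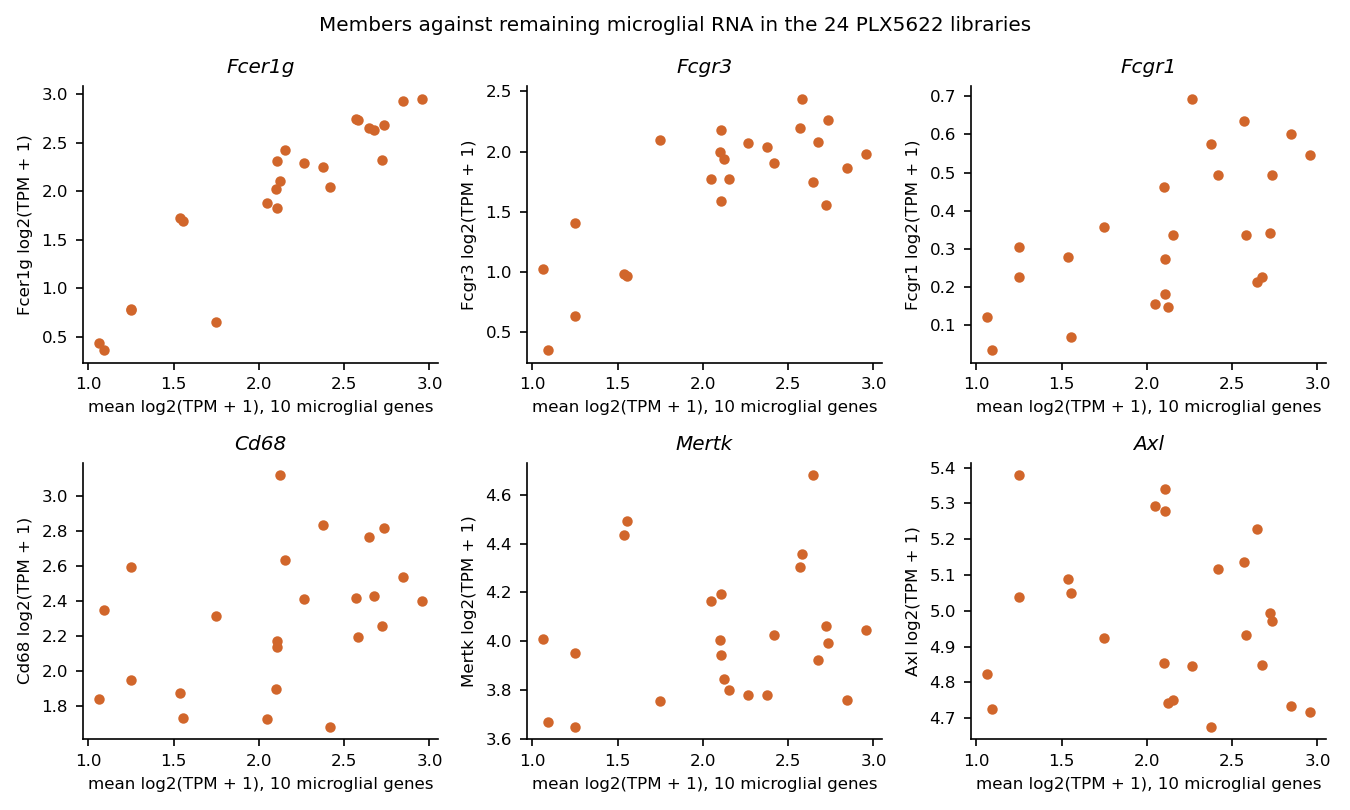
Log2(TPM + 1) of 6 members (vertical axes) against the mean log2(TPM + 1) of the 10 microglial marker genes (horizontal axes) in the 24 PLX5622 libraries, where each point is 1 mouse. The points of *Fcer1g* (r = 0.929) and *Fcgr3* (r = 0.774) rise with the markers, and those of *Mertk* (r = 0.179, and 0.433 within ZT groups) and *Axl* (r = -0.152) scatter. Vertical axes do not start at 0.

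Other cells that carry these genes were followed by their markers. Border macrophages, which line vessels and meninges and also carry Fc receptors, had a summed level over 7 markers of 7.82 to 20.2 TPM in control and 0.385 to 2.94 TPM in PLX5622 mice, and the 2 markers that passed the filter, *Pf4* (5.05 and 0.446 TPM) and *Cbr2* (2.46 and 0.550 TPM), passed through their control level. The summed level was lower in all 24 PLX5622 mice than in any control mouse, as for *Fcgr1*, *Fcgr3*, *Fcer1g* and *Cd68* in TPM. For *Fcgr2b* this held in 23 of 24 PLX5622 mice. The part of border macrophages in these results was not tested. Neutrophil markers summed to 2.27 to 32.7 TPM in control and 2.53 to 37.1 TPM in PLX5622 mice, an overlap of the diets. The 4 markers of mast cells and basophils had a median of 0 TPM, and no marker of B cells (4) or of T and NK cells (5) reached a mean of 1 TPM. Among the cells known for TAM genes, 1 of 6 astrocyte markers was called higher, *Gfap* (149 ± 36.8 TPM in control, 218 ± 45.0 TPM in PLX5622 mice, log2 fold change 0.56, adjusted p = 5.49e-06 in limma), and none of 6 endothelial, 5 mural, 5 neuronal, 5 oligodendrocyte or 3 oligodendrocyte precursor markers was called in limma. Of 5 choroid plexus markers 2 were called higher, with sums of 67.8 to 1185 TPM in control and 147 to 1268 TPM in PLX5622 mice, and their part in the values of the TAM genes was not tested.

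Of the genes that work with Fc receptors, 12 of 21 passed the filter and 9 were called lower, against 2.58% of all genes tested. None was called higher, and the median log2 fold change was -0.90. *Fcrls*, an Fc receptor-like gene of microglia, fell to 8.40% of control (-3.06, SE 0.123), *Tyrobp*, an adaptor related to the gamma chain, to 10.6% (-3.30, SE 0.175), and *Vav1*, an exchange factor in leukocytes, to 11.9% (-1.37, SE 0.0639). *Lyn*, *Lat2*, *Plcg2*, *Inpp5d*, *Ptpn6* and *Rac2* were the other 6 called. *Vav1*, *Plcg2*, *Ptpn6* and *Rac2* had means under 1 TPM in PLX5622 mice and passed the filter through their control level. *Inpp5d* and *Ptpn6* encode phosphatases through which the inhibitory receptor acts, so both the activating and the inhibitory arm held genes that fell. *Fcgrt*, which encodes the neonatal Fc receptor, had 21.0 ± 3.57 TPM in control and 18.9 ± 2.39 TPM in PLX5622 mice and was not called (adjusted p = 0.207 in limma). *Fcgr4*, an activating receptor, was at 0.261 and 0.0795 TPM and was not tested.

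Among other phagocytic receptors and bridging proteins 11 of 18 were tested and 5 were called lower, with a median of -0.07. Over all genes tested 2.58% were called lower. *Itgam* and *Itgb2*, the chains of complement receptor 3, fell to 6.86% and 16.0% of control, and *Stab1*, a scavenger receptor of macrophages, to 20.5%. These 3 genes had means under 1 TPM in PLX5622 mice and passed the filter through their control level. *Itgb5* was at 62.7% and *Lrp1* at 85.3%, both called lower. None of 13 tested engulfment genes (14 listed) was called in either direction (median 0.02), against 3.45% of all genes tested. The 3 of these with the smallest p were *Gulp1* (adjusted p = 0.187), *Rhog* (adjusted p = 0.285) and *Crk* (adjusted p = 0.399, all in limma). *Dock2* missed the filter and was not tested, but its mean in PLX5622 mice was 12.5% of control. It had 0.868 to 1.54 TPM in control and 0.0454 to 0.265 TPM in PLX5622 mice, without overlap. Of 11 tested genes of lysosomal membranes and phagosomes (12 listed) 5 were called lower, against 2.58% of all genes tested. *Laptm5* fell to 10.1% of control and *Slc11a1*, which also passed through its control level, to 28.9%. *Grn*, which encodes progranulin, fell to 71.3%, *Tcirg1* to 75.03% and *Npc2* to 90.7%. *Cd68*, at 37.8%, lay among these values.

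Of genes that regulate TAM signalling or carboxylate its ligands, 12 of 15 were tested and 1 was called, with a median of 0.01. Over all genes tested 3.45% were called in either direction. *Nr1h2*, which encodes the liver X receptor beta, had 55.1 ± 4.51 TPM in control and 48.3 ± 3.97 TPM in PLX5622 mice (log2 fold change -0.18, SE 0.0344, adjusted p = 1.62e-04 in limma). The next 2 by p, *Ifnar1*, a chain of the type I interferon receptor, and *Vkorc1*, which recycles vitamin K, had adjusted p-values of 0.254 and 0.270 in limma.

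Likeness between genes was described by the Pearson correlation, over 47 libraries, of their deviations from the means of the 12 groups. *Fcer1g* was most like *C1qa* (0.908), *C1qb* (0.908) and *Ctss* (0.902), 2 complement genes and a cathepsin, and *Fcgr3* most like *C1qb* (0.821), *Tyrobp* (0.791) and *Mpeg1* (0.786). *Fcgr3* and *Fcer1g* were the most alike of the members (0.698). These correlations pool both diets. The mean log2(TPM + 1) of the 10 microglial markers, which include *C1qa* and *Ctss*, varied more among PLX5622 mice (SD 0.576) than among control mice (SD 0.156). With that mean *Fcer1g* had r = 0.929 in PLX5622 mice and r = 0.212 in control mice. *Fcgr2b* was most like *Cd300c2* (0.738), *Gm43097* (0.650) and *Pcdhgb5* (0.649), but *Gm43097* was above 0 in 1 library only, PLX5622 mouse 4 at ZT18 (66.8 TPM), the mouse with the highest *Fcgr2b* of its diet. Without that mouse the values for *Cd300c2* and *Pcdhgb5* were 0.652 and 0.528. *Fcgr1* had weak likeness to any gene (*Cd7* 0.483, *Zfp786* 0.470, *Tbcb* 0.465), and *Cd68* was most like *Gm1673* (0.604), *Gm20383* (0.550) and *Dbp* (0.548), a clock output gene, none of them among the microglial markers.

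The TAM genes were most like genes that were not called for diet in all but 1 case. Few genes were called at all, 3.45% of those tested in limma, so this count does not set the TAM genes apart. *Mertk* was most like *Rapgef1* (0.786), *Ctnnd2* (0.760) and *Shank2* (0.759), *Axl* like *Epn1* (0.831), *Ncs1* (0.801) and *Dact3* (0.781), *Tyro3* like *Chst1* (0.889), *Plxna2* (0.883) and *Mmp17* (0.882), and *Gas6* like *Endod1* (0.880), *Kndc1* (0.880) and *Gria4* (0.873). *Pros1* was most like *Cmtm6* (0.702), *Tinagl1* (0.691) and *Sfrp1* (0.670). *Cmtm6* was the exception, at 15.8 TPM in control and 10.4 TPM in PLX5622 mice (log2 fold change -0.56, adjusted p = 9.09e-15 in limma). The points in each of these correlations share their libraries and so their base composition and RNA quality.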

How the data were processed

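Cortical RNA from 47 mice was analysed, and no other library at control ZT14 was analysed here. The authors mapped reads to GRCm38.p6 with STAR v2.7.0f and computed the deposited TPM with Salmon v1.0.0 and the Gencode annotation. The second deposited table holds whole-number counts per gene, made by the authors without normalization although it is named for FPKM. The submitters' processing notes name STAR, featureCounts, edgeR, limma and mm10. Identifiers matched GENCODE M21 symbols for 99.68% of the TPM table.

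Genes averaging 1 TPM or more were tested on the log2(TPM + 1) scale in limma 3.58.1 (R 4.3.3), with diet and a 24-h cosine and sine of time as terms, and Benjamini-Hochberg adjustment. JTK_CYCLE was written in Python 3.11.15 with an exact null and 6 phases, and its p-values before adjustment over genes were multiplied by the number of phases. The alternatives used edgeR 4.0.16 and DESeq2 1.42.0 on the counts (mean of at least 10). The limma tests of diet and of the difference in rhythm, the edgeR and DESeq2 tests of diet, and JTK_CYCLE were tried on simulated data. The other tests were not. The members and gene lists were chosen with earlier results of these data known. Named genes are the 10 members, *Csf1r*, the 3 of each list with the smallest p for diet, and the 3 most like each member. Other genes named were chosen after their values were seen. Within a diet the correlation of TPM with CPM ran from 0.66 to 0.96 over the members. Of 69 pairs of libraries within groups, the closest differed by a chi-square of 4.56 per degree of freedom, so all were kept as separate samples. Labels do not mark cages, shared litters or extraction batches. With 4 mice to a cage and the diet given in chow, mice of a cage may not be independent. The tests treated all mice as independent.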

Additional observations from a re-analysis of the deposited data

Results flagged for a closer look

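In 110 groups of 4 mice (10 genes, 11 groups) a value standing apart from the other 3 by Dixon's 95% criterion was found 5 times, where chance gives about 5.5. *Fcgr2b* was at 3.39 TPM in PLX5622 mouse 4 at ZT18, beside 0.282 to 0.541 TPM in the other mice of that group, while its counts were 21 beside 10 to 13. *Fcgr3* was at 4.43 TPM in PLX5622 mouse 1 at ZT22, beside 2.41 to 2.74 TPM, with 85 counts beside 33 to 41. *Cd68* was at 12.8 TPM in control mouse 4 at ZT6, beside 8.90 to 9.22 TPM, with 160 counts beside 120 to 129. *Axl* was at 27.1 TPM in control mouse 3 at ZT22, beside 35.5 to 37.1 TPM. Its 1616 counts (84.2 CPM) were near the lowest of the others, which had 1650 to 2618 counts (90.3 to 114.6 CPM). *Tyro3* was at 68.8 TPM in control mouse 4 at ZT10, beside 54.5 to 55.4 TPM. Its 3637 counts lay within the 2846 to 4503 of the others, and its CPM was 201.6 beside 149.6 to 189.5.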

How the results depend on the processing

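All 6 member calls for diet were kept with every library left out in turn. Over all genes the number called for diet was 503, and it was 298 with a mean of at least 5 TPM (where *Fcgr1* and *Fcgr2b* were not tested and 4 members were called), 1177 in edgeR, 1293 in DESeq2 and 429 to 634 with 1 library left out. With 1 library left out the count of rhythmic members was 0 to 1 in PLX5622 mice, of changed pairs 7 to 8, and of members related to microglial RNA 3 to 4. Values that turned sign were *Fcer1g* against the markers (-0.12 from TPM), the relations of *Tyro3* in PLX5622 mice (0.051 within ZT groups) and of *Gas6* (-0.186 in CPM) and *Fcgr1* (-0.054 within ZT groups) in control mice, and with 1 library left out the PLX5622 relations of *Tyro3* (-0.218 to 0.114) and *Gas6* (-0.199 to 0.022). None of these was called at the settings named here, and the cause was not tested. The likeness between genes with 1 library left out was added after seeing the data. Of 324 results under other settings, 303 kept their direction and their side of the threshold.

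Replicate numbers were not taken to pair the samples: same-numbered mice had a mean correlation of deviations of 0.051, against -0.017 for others, with a lowest value of -0.247, and 24 of 47 libraries correlated best with their own number, a hint from the data and not from the design. With the replicate number as a block, 6 members and 578 genes (503 without it) were called for diet, and 0 genes for a difference in rhythm. *Fcgr1* and *Fcgr2b* had as few as 3 counts in a PLX5622 library.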
